A study of Mus musculus with 16 samples.

Results

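Haematopoietic stem cells (HSCs) from Gfra2-/- mice were compared between the endosteal and the central bone marrow (BM) across all genes. The comparison used 7 RNA-seq libraries, 4 endosteal and 3 central, of the 15 that the study's sample sheet names. They were chosen by the genotype and BM region in the sample labels and that sheet. The labels list 16 samples, 4 per group, but the sheet names only 3 central Gfra2-/- libraries. The 8 WT libraries, 4 endosteal and 4 central, were used only to place the Gfra2-/- values. Endosteal cells came from bones that were crushed after flushing, and central cells came from the flushed marrow. Each library was a pool of 30 cells sorted as lineage-negative Sca-1+ c-Kit+ CD48- CD150+, a surface phenotype that enriches for HSCs. The mice were untreated C57/Bl6 animals. Gfra2 encodes GFRα2, the co-receptor that passes neurturin signals to RET, and neurturin keeps many parasympathetic cholinergic neurons alive. The labels restrict the deletion to no cell type, so a loss in nerves and a loss in blood cells cannot be told apart in these mice. The labels give neither the age of the animals nor which animal each pool came from. The p-values below therefore measure only the spread between these libraries.

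HSCs reside in perivascular niches, some along the bone surface and others around sinusoids deeper in the marrow. Most HSCs are quiescent, and signals from stroma, vessels and nerves hold them there or let them enter the cell cycle. Genes such as Mllt3, Mecom, Hlf and Procr are known for high levels in long-term HSCs and fall as cells become progenitors. Cycling HSCs raise replication genes, mitotic genes, ribosome production and the MYC programme.

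The 7 libraries held between 7649803 and 18550008 reads on genes, and between 12281 and 13820 genes had at least 10 counts. Mitochondrial reads took 3.24 to 7.21% of gene reads and ribosomal protein genes 1.72 to 3.32%. No library measure separated the regions. Exact two-sided permutation tests of 8 such measures gave p of 0.171 or more, and the smallest p that 4 against 3 libraries allow is 0.0571. Endosteal library D and central library C had spike-in shares of 0.24%, against 0.764 to 1.81% in the others, and are called the low spike-in pair below. Letters only name the libraries and pair none of them. The median Pearson r of log2(CPM + 1) across genes was 0.750 for the 6 endosteal pairs, 0.765 for the 3 central pairs and 0.754 for the 12 mixed pairs.

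The targeted gene did not match its label in every library. In endosteal libraries, from A to D, Gfra2 had 2, 47, 1 and 9 counts. Central libraries A to C had 0, 1 and 0. Endosteal libraries B and D thus held reads of the gene that the label calls deleted. The WT libraries held hardly any, with 0, 0, 0 and 1 counts in endosteal libraries A to D and 0, 0, 4 and 0 in central ones. The count in B is above that of every WT library, and the low counts elsewhere do not check the deletion. Which exons are deleted is not given in the sources used here, so reads outside them cannot be told apart from an intact transcript. Groups below are the libraries labelled Gfra2-/-, and leading counts are also given without B and D.

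The sort markers fitted the gate. Kit, the stem cell factor receptor, had 523.8 to 1027 CPM (counts scaled to library size), and Ly6a, which encodes Sca-1, had 110 to 377 CPM in the 7 libraries. Slamf1, which encodes CD150, had 10.4 to 99.4 CPM, and its lowest value was in endosteal library D. Cd48 stayed between 0 and 16.6 CPM. For Slamf1 the fitted difference between regions was 0.86 on the log2 scale. With spike-in scaling it was -0.17 relative to the median of all genes.

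Endosteal library D stood apart in markers of other cell types. The 10 B cell markers summed to 3812 CPM there, against 55.2 to 99.4 CPM in the other endosteal libraries and 44.9, 423.5 and 764.7 CPM in central libraries A to C. Cd79a, a B cell receptor subunit, had 334.0 CPM in D. The transcription factor Ebf1, which commits cells to the B lineage, had 94.1 CPM in D and at most 0.466 CPM in endosteal A to C. The 7 erythroblast markers summed to 694.8 CPM in D and to 12.7 to 66.2 CPM elsewhere, with 341 CPM of Hbb-bs and 98.3 CPM of Hba-a1, both globin genes, in D. Central library C held the highest sums of macrophage markers, 190.8 CPM, and neutrophil markers, 26.7 CPM. Stromal and osteoblast markers summed to 136.0 to 308 CPM in all libraries. The part of these cells in the differences below was not tested.

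**Figure D1:**
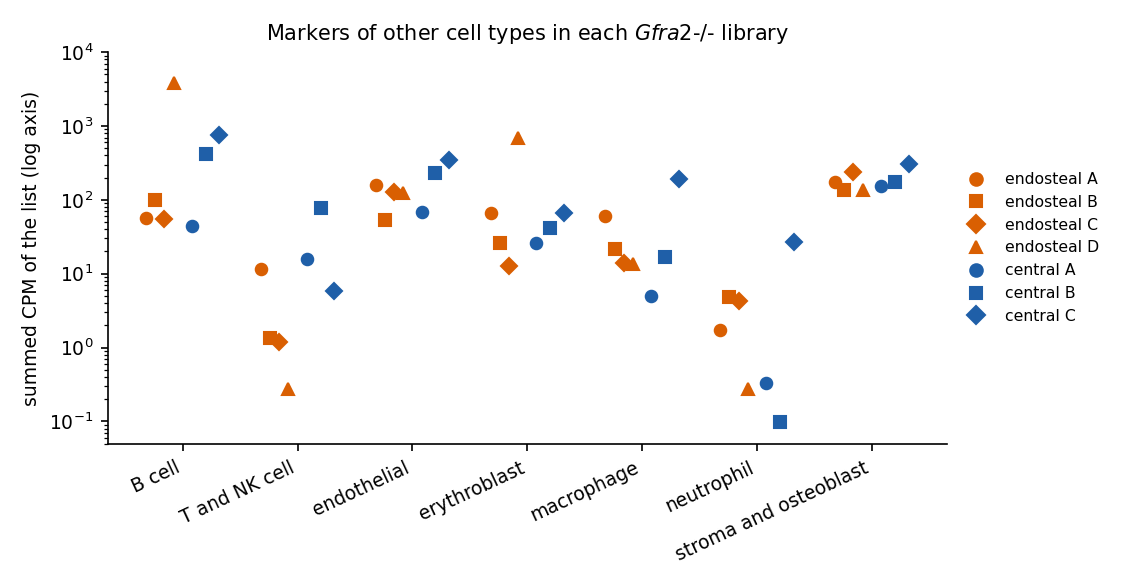
Summed CPM of 7 marker lists (log axis) in each library labelled Gfra2-/-, orange for endosteal and blue for central, with 1 symbol per library. Endosteal D lies above all others for B cell markers (3812 CPM) and erythroblast markers (694.8 CPM), and central C for macrophage markers (190.8 CPM).

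The test across all genes asked which genes differ between the 2 regions in Gfra2-/- mice. With edgeR's quasi-likelihood test, 0 of 13860 genes passed a false discovery rate (FDR) of 0.1, or 0.0%, and the smallest adjusted p was 0.637. An unadjusted p under 0.05 was reached by 664 genes (4.79%), 380 higher (2.74%) and 284 lower (2.05%) in endosteal cells. With no difference at all, about 1 in 20 genes would reach it. limma-voom also called 0 genes, with 909 at an unadjusted p under 0.05. DESeq2, the tool of the study, called 395 of 14342 genes (2.75%), 213 higher (1.49%) and 182 lower (1.27%). The groups did not overlap for 319 of these 395 genes, and 148 of them had at most 3 counts in every library of one region. Over all 13860 genes tested in edgeR, 3.68% did not overlap as higher and 3.61% as lower. No matching share over all genes was computed for the 148. The calls and the separation come from the same counts, so the separation adds no support. In each of the 7 DESeq2 fits that left out 1 library, 101 of the 395 passed again, 63 higher and 38 lower. Without endosteal libraries B and D it called 606 genes, 157 higher and 449 lower. Because no gene passed the main test, the genes below are described by their values. They were taken by fixed rules on non-overlap, p and counts, so their separation is a property of the choice. In this main test all edgeR adjusted p-values of named genes lie between 0.637 and 1.

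Among all 13860 genes tested, the groups did not overlap for 510 genes higher in endosteal cells (3.68%) and 501 genes lower (3.61%). With no regional difference, a share of 0.0571 of genes would not overlap, both directions together. Over all genes tested the log2 fold change had a median of 0.03, its absolute value a median of 0.52, and its standard error a median of 0.82. The spread between pools was wide for low genes. Among the 3465 lowest genes, up to 9.60 CPM, the median coefficient of variation was 1.02 in endosteal and 0.915 in central libraries, against 0.336 and 0.303 among the 3465 highest, above 71.8 CPM.

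Some genes were found in one region and nearly absent from the other. Counts of at most 3 in every endosteal library, with 10 or more in every central library, were seen for 23 genes. The opposite was seen for 13 genes. Together these are 36 of 23215 genes with any count (0.155%). DESeq2 called 21 of the 23 and 12 of the 13 (2.75% over all genes). The genes were chosen on the same counts, so these calls add no support. Of the 23 genes, 17 had more than 3 counts in at least 1 WT endosteal library. In WT cells, 0 of the 23 and 0 of the 13 genes had groups that did not overlap in the same direction. A count of 0 or 1 in a pool of 30 cells gives only the level of that pool.

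The 8 central genes chosen by highest minimum level included 3 receptors, a transcription factor, a channel and a long non-coding RNA. Ptprf, a receptor-type protein tyrosine phosphatase (chromosome 4, 118208213 to 118291405, GRCm38, minus strand), had 34.8, 37.1 and 16.2 CPM in central libraries A to C. In the endosteal libraries it had 1 count in B and 0 in the others. The summed count per depth was 1658 times higher in central cells, with a 95% counting interval of 296.9 to 65554. It had the smallest edgeR p (5.5e-05) and a DESeq2 adjusted p of 8.1e-13. In WT libraries Ptprf was at 0 in all endosteal libraries and at most 0.905 CPM in central ones.

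Trim7, a ubiquitin ligase, had 10.95, 14.2 and 93.4 CPM in central libraries, and Epas1, which encodes the hypoxia-inducible factor HIF-2α, had 10.9, 9.92 and 66.4 CPM. Each had 1 count in endosteal library B and 0 in the others. The highest value of both was in central library C, the one with the most macrophage marker reads. Stxbp6, a SNARE-binding protein, had 24.6, 3.73 and 36.8 CPM in central cells, and Fcgr2b, the inhibitory IgG receptor, had 3.005, 5.498 and 42.6 CPM. Stxbp6 and Fcgr2b were also highest in central library C, which held the most B cell marker reads of the central libraries (764.7 CPM). The part of other cell types in these values was not tested. Kcnh7, a potassium channel, had 5.61, 20.7 and 3.45 CPM in central cells and at most 0.104 CPM in endosteal ones.

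Kdr and H19 had 0 counts in all 4 endosteal libraries. Kdr, the VEGF receptor VEGFR2 (chromosome 5, 75932827 to 75978458, minus strand), had 3.54, 66.4 and 34.4 CPM in central libraries. Against a floor of 3 counts per library its mean was at least 140-fold higher there, a bound that covers counting error only and not the spread between pools. In WT cells Kdr was also lower in the endosteum, by -4.20 on the log2 scale (unadjusted p = 0.024). Kdr is also 1 of 10 endothelial markers, of which 4 were tested and all 4 had a negative log2 fold change, with a median of -0.70. The CPM of the 10 markers, Kdr included, summed to 160, 53.9, 130 and 124 in endosteal libraries A to D and to 69.0, 234 and 348 in central ones, so the sum was highest in the central libraries B and C where Kdr was high. The part of endothelial cells in the Kdr difference was not tested. Pecam1 and Emcn, both of this list, overlapped between regions. Pecam1 had 36.8 to 45.9 CPM in endosteal and 26.7, 101 and 65.2 CPM in central libraries, and Cdh5, the defining endothelial cadherin, had 0 counts in all 7. H19, an imprinted long non-coding RNA known to restrain growth factor signalling in HSCs (chromosome 7, 142575529 to 142578143, minus strand), had 16.8, 4.52 and 7.84 CPM in central libraries. This is at least 39.1-fold higher against the same floor. Its exons overlap Mir675, whose reads cannot be told apart from it. In WT cells H19 had at most 0.242 CPM in endosteal libraries and 8.15, 55.3, 0 and 39.3 CPM in central ones.

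The endosteal counterpart was led by Prss57, a serine protease of myeloid granules (chromosome 10, 79781474 to 79790961, minus strand). It had 20.3, 17.4, 8.26 and 14.4 CPM in endosteal libraries A to D and 0, 0.0982 and 0.133 CPM in central ones. The summed count per depth was 263 times higher in endosteal cells, with a 95% counting interval of 72.7 to 2177. Its DESeq2 adjusted p was 3.7e-08. In WT cells it ranged from 0.483 to 17.2 CPM in the endosteum and was at 0 in 3 of 4 central libraries, with 0.905 CPM in the other. Zfp607a, a zinc finger gene, had 18.7, 10.7, 2.63 and 18.4 CPM in endosteal libraries and a single count in central ones. Of the others, Gm43075 reached 21.6 CPM, 1700008O03Rik 12.4 CPM, Atp2c2 (a secretory pathway calcium pump) 9.09 CPM, Gm9923 6.63 CPM, Cfap126 (a ciliary protein) 10.4 CPM and Gm12568 2.73 CPM. Cfap126 had 0 counts in all central libraries. It was at least 12.4-fold higher in endosteal ones, counting error only, with its highest value in library C.

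**Figure D2:**
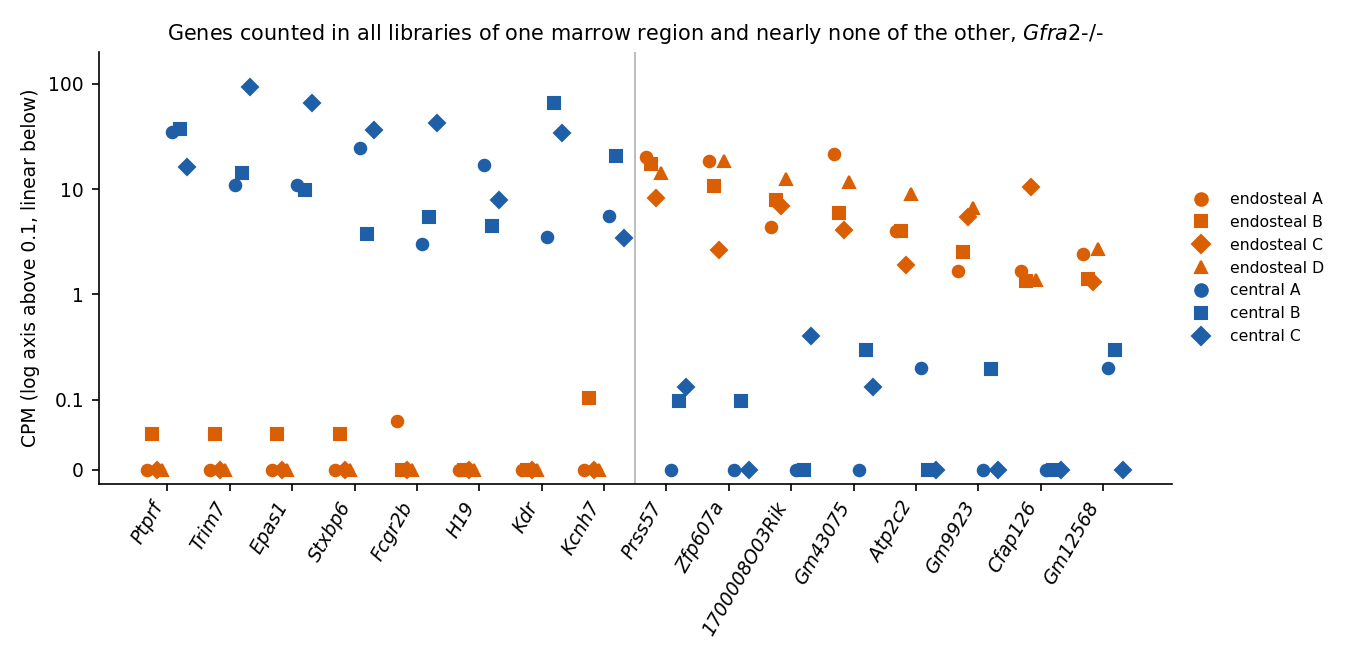
CPM of 16 genes in each library labelled Gfra2-/- (log axis above 0.1 CPM, linear below), orange for endosteal and blue for central, with 1 symbol per library. The 8 genes left of the line reach 3.005 CPM or more in all 3 central libraries and at most 0.104 CPM in the endosteal ones, and the 8 at the right show the opposite order.

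Expressed genes also separated the regions, by smaller folds. Atp6v1a, the catalytic subunit of the proton pump that acidifies lysosomes (chromosome 16, 44085402 to 44139705), had 60.9, 79.8, 58.6 and 78.1 CPM in endosteal libraries and 215, 223 and 186 CPM in central ones. All endosteal values lay under 80 CPM and all central values above 185 CPM. Its log2 fold change was -1.59 ± 0.27 (SE), with a DESeq2 adjusted p of 1.2e-08. The difference was -1.72 within the high spike-in libraries and -1.24 in the low spike-in pair, on the log2(CPM + 1) scale. In WT cells it was -0.29. The interaction of genotype and region had an unadjusted p of 0.0095 for Atp6v1a and an adjusted p of 0.54 in edgeR.

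Rmdn3, a tether between mitochondria and the endoplasmic reticulum, had the smallest DESeq2 adjusted p of any gene named here (5.4e-17). It had 16.7, 17.8, 14.1 and 17.0 CPM in endosteal and 61.5, 69.8 and 62.2 CPM in central libraries. The log2 fold change was -1.98 ± 0.47. In WT cells the sign was opposite, 1.51 with an unadjusted p of 0.10 and wide overlap. The exons of Rmdn3 overlap those of another annotated gene, and the counting did not use strand.

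Other low endosteal values were found for Sumf1, the enzyme that activates sulfatases, with 0 to 0.278 CPM in endosteal and 43.9, 19.3 and 8.77 CPM in central libraries. Slc4a3, an anion exchanger, had 1 count in endosteal cells and 16.03, 17.4 and 1.06 CPM in central ones. N4bp2os had 0.454 to 0.958 CPM in endosteal and 9.55, 24.7 and 20.6 CPM in central libraries. It overlaps exons of N4bp2, whose reads cannot be told apart from it.

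Among genes higher in endosteal cells, Ado, a thiol dioxygenase, had 131, 465, 175 and 217 CPM in endosteal and 16.2, 40.4 and 39.9 CPM in central libraries. The log2 fold change was 2.95 ± 0.56 with a DESeq2 adjusted p of 0.00019. In WT cells it was -0.79, and the interaction had an unadjusted p of 0.0027. Gclm, the modifier subunit of the enzyme that limits glutathione synthesis, had 156, 149, 197 and 268 CPM in endosteal and 43.5, 75.2 and 45.7 CPM in central libraries, a log2 fold change of 1.81 ± 0.36. WT cells gave 0.05. Umps, which makes uridine monophosphate for pyrimidine synthesis, had 134, 190, 128 and 252 CPM against 74.5, 32.7 and 44.0 CPM (log2 fold change 1.80 ± 0.42).

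Mitochondrial factors were among them as well. Mrpl35, a protein of the mitochondrial ribosome, had 169, 77.4, 116 and 168 CPM in endosteal and 35.6, 29.1 and 14.1 CPM in central libraries. Mief1, which promotes mitochondrial fission, had 133, 303, 182 and 101 CPM against 20.1, 33.4 and 3.85 CPM. Git2, a GTPase-activating protein for Arf proteins, was the most abundant gene of this group. It had 280, 477, 354 and 410 CPM in endosteal and 172, 166 and 191 CPM in central libraries (log2 fold change 1.11 ± 0.26).

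Cenpc1, an inner kinetochore protein, was narrow within each group, at 55.4, 55.3, 44.7 and 52.2 CPM in endosteal and 20.97, 17.8 and 20.9 CPM in central libraries. Its log2 fold change was 1.38 ± 0.48 and its DESeq2 adjusted p was 6.7e-07. In WT cells it was -0.44. Slc27a6, a fatty acid transporter, had 7.98 to 10.6 CPM in endosteal cells and at most 0.393 CPM in central ones. Akr1c12, an aldo-keto reductase, had 6.47 to 12.7 CPM against 0.393 to 1.07 CPM.

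**Figure D3:**
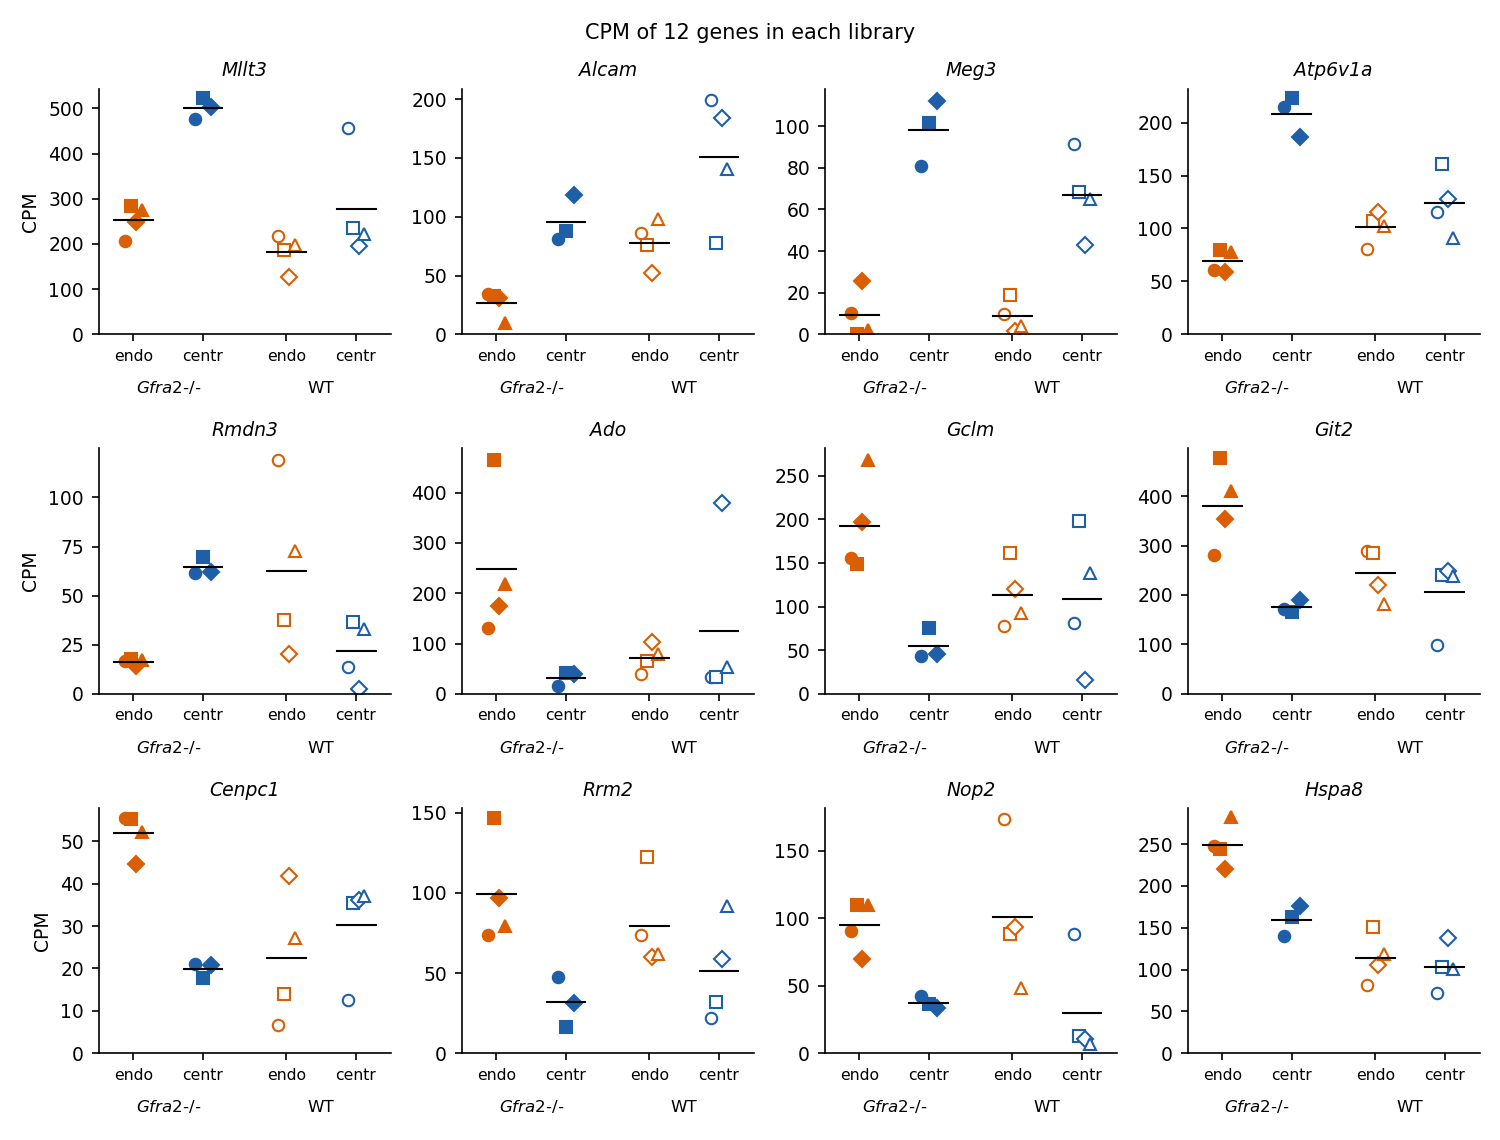
CPM of 12 genes in each library, filled symbols for Gfra2-/- and open symbols for WT, orange for endosteal and blue for central, with 1 symbol per library and a line at each group mean. In the Gfra2-/- columns Mllt3, Alcam, Meg3, Atp6v1a and Rmdn3 lie lower in all 4 endosteal libraries than in all 3 central ones, and the other 7 genes lie higher.

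Genes listed as typical of long-term HSCs were mostly lower in endosteal cells. This list and those below were chosen with earlier results of these data known, so their counts are description only. Of 38 such genes tested, 30 had a negative and 8 a positive log2 fold change, against 48.4% negative over all genes. The median was -0.46, against 0.03 for all genes. edgeR gave 6 of the 38 an unadjusted p under 0.05, all lower (2.05% over all genes). DESeq2 called 3, Kdr, Mllt3 and Alcam, all lower (1.27% over all genes). Kdr is in the endothelial list too. The mean log2(CPM + 1) of the list was 6.94, 6.66, 6.77 and 6.68 in endosteal libraries A to D and 7.35, 7.53 and 7.39 in central ones, so the regions did not overlap. Without endosteal libraries B and D 31 of 38 were lower and the median was -0.36. The median was -0.32 in the high spike-in libraries and -0.60 in the low spike-in pair.

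Mllt3, a chromatin reader that sustains HSC self-renewal, had 207, 283, 248 and 274 CPM in endosteal and 477, 523 and 503 CPM in central libraries. Its log2 fold change was -0.99 ± 0.21 with a DESeq2 adjusted p of 0.00021. Alcam, an adhesion molecule, had 34.6, 32.9, 30.7 and 9.63 CPM against 81.3, 87.7 and 118 CPM. Both genes were lower in the WT endosteum too, by -0.60 and -0.94 on the log2 scale. Of the 37 genes of the list tested in WT cells, 25 were lower in the endosteum (48.5% over all WT genes), with a median of -0.27. The interaction reached an unadjusted p under 0.05 for 1 gene of the list (6.97% over all genes).

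Imprinted genes gave the lowest median of all lists with 10 or more tested members, -0.84, with 14 of 18 lower (48.4% over all genes). Only 2 of the 18 had an unadjusted p under 0.05, both lower (2.05% over all genes). Besides H19, Meg3, a maternally expressed long non-coding RNA of the Dlk1 locus, had 10.3, 0.104, 25.4 and 2.27 CPM in endosteal and 80.8, 101 and 112 CPM in central libraries. The log2 fold change was -3.37 ± 1.24. The WT libraries gave -2.95 with an unadjusted p of 0.0051. Rian, from the same locus, had 0.347, 0.104, 3.11 and 0 CPM against 7.68, 14.9 and 13.6 CPM. The Meg3 and Rian exons overlap small RNAs that the counting cannot separate. Without B and D the median of the list was -0.58, and among genes with at least 10 counts in every library it was -0.35.

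Replication genes were mostly higher in endosteal cells. Of 50 S phase genes tested, 39 had a positive log2 fold change and the median was 0.44, against 51.6% positive over all genes. An unadjusted p under 0.05 was reached by 7, all higher (2.74% over all genes), and DESeq2 called 4, all higher (1.49%). Rrm1 and Rrm2, the subunits of ribonucleotide reductase, had 181 to 366 CPM and 73.9 to 146 CPM in endosteal libraries, against 130.1 to 148 CPM and 16.2 to 47.4 CPM in central ones. Their log2 fold changes were 1.04 ± 0.29 and 1.64 ± 0.50. Tyms, which makes thymidylate, had 134, 562, 113 and 113 CPM against 47.4, 52.1 and 64.8 CPM. The mean log2(CPM + 1) of the list overlapped between regions, at 5.72 to 6.51 in endosteal and 5.44 to 6.04 in central libraries. Without B and D 28 of 50 were higher and the median was 0.19. In WT cells the median was 0.13, with 34 of 49 higher (51.5% over all WT genes).

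Genes of G2 and mitosis varied more between pools than between regions. Of 67 tested, 55 had a positive log2 fold change (51.6% over all genes) with a median of 0.52. An unadjusted p under 0.05 in edgeR was reached by 0, and DESeq2 called 0. Their mean log2(CPM + 1) was 4.66, 6.09, 4.30 and 3.39 in endosteal libraries A to D and 4.22, 3.21 and 4.94 in central ones. Endosteal B held the highest value of the 7 and D the second lowest. The median was 0.02 without B, 1.28 in the high spike-in libraries and -1.49 in the low spike-in pair, and with spike-in scaling it was -0.22 relative to all genes. Sgo1, the protector of centromeric cohesion, had 10.7 to 22.6 CPM in endosteal and 1.59 to 7.55 CPM in central libraries. The outer kinetochore gene Nuf2 (3.06 ± 1.60 on the log2 scale) and the lamin gene Lmnb1 (1.45 ± 0.85) overlapped between regions. In WT cells 54 of 65 were lower in the endosteum (48.5% over all WT genes), with a median of -0.83. The interaction had an unadjusted p under 0.05 for 3 of the genes tested (6.97% over all genes) and adjusted p under 0.1 for 0.

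The G1 cyclins and kinases had a median of 0.41, with 14 of 18 higher (51.6% over all genes), and 0.15 without B and D. Among them the phosphatase gene Cdc25a (-1.16 ± 0.61) and Cdk4 (0.41 ± 0.26) overlapped between regions. Myc itself had 225, 351, 205 and 245 CPM in endosteal and 200.5, 94.1 and 154 CPM in central libraries (log2 fold change 0.78 ± 0.34). Of 51 MYC targets, 34 were higher (51.6% over all genes), with a median of 0.28. The list level did not overlap, at 6.51 to 6.93 in endosteal and 6.28 to 6.44 in central libraries. Nop2, a ribosomal RNA methyltransferase, had 69.8 to 110 CPM against 33.5 to 42.4 CPM, with a DESeq2 adjusted p of 0.00067. Nop56, a nucleolar protein (1.11 ± 0.35), and the translation factor Eif5a (0.56 ± 0.18) did not overlap either. In WT cells the list had a median of 0.47, with 37 of 51 higher (51.5% over all WT genes). Without endosteal B and D the Gfra2-/- median was 0.08.

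Quiescence regulators had a median of -0.13 with 17 of 24 lower (48.4% over all genes). An unadjusted p under 0.05 was found for 1, a lower one (2.05% over all genes). This was Foxo1, a transcription factor that restrains cycling, with 19.9, 52.1, 12.7 and 65.2 CPM in endosteal and 111, 106 and 86.9 CPM in central libraries (-1.44 ± 0.59). The WT value was -1.83. Klf6 (-0.94 ± 0.60), a transcription factor, overlapped between regions.

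Cytosolic ribosomal protein genes were lower for 64 of 79 (48.4% over all genes), with a median of -0.37, and 9 had an unadjusted p under 0.05, all lower (2.05% over all genes). The list level overlapped, at 6.51, 5.99, 6.60 and 6.07 in endosteal and 6.35, 6.82 and 6.63 in central libraries. The lowest values were those of B and D, and without both libraries 50 of 79 were lower with a median of -0.15. Rplp1, an acidic protein of the large subunit, had 652, 360, 618 and 395 CPM against 668, 1221 and 1163 CPM. Rps14 (-0.76 ± 0.28) and Rps20 (-0.74 ± 0.29), both of the small subunit, overlapped. Processed pseudogenes of these genes can share their reads. WT cells gave a median of -0.27. Mitochondrial ribosomal proteins had a median of 0.11, with Mrps9 (0.93 ± 0.39) and Mrps26 (0.87 ± 0.37) not overlapping.

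Heat shock chaperones and co-chaperones were higher for 16 of 18 (51.6% over all genes), with a median of 0.21. An unadjusted p under 0.05 was reached by 3, all higher (2.74% over all genes). Hspa8, the constitutive HSP70, had 248, 245, 220 and 283 CPM in endosteal and 140, 163 and 176 CPM in central libraries, with a DESeq2 adjusted p of 0.074. Hsf1, the factor that drives these genes (1.01 ± 0.44), did not overlap, and the HSP90 co-chaperone Stip1 (0.77 ± 0.34) did. The list median was 0.27 without B and D and 0.08 in WT cells. Endoplasmic reticulum chaperones had a median of 0.11. There Herpud1 was higher (1.27 ± 0.39), and Atf4 (-0.82 ± 0.33) and Sel1l (-0.66 ± 0.27) were lower, without overlap.

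**Figure D4:**
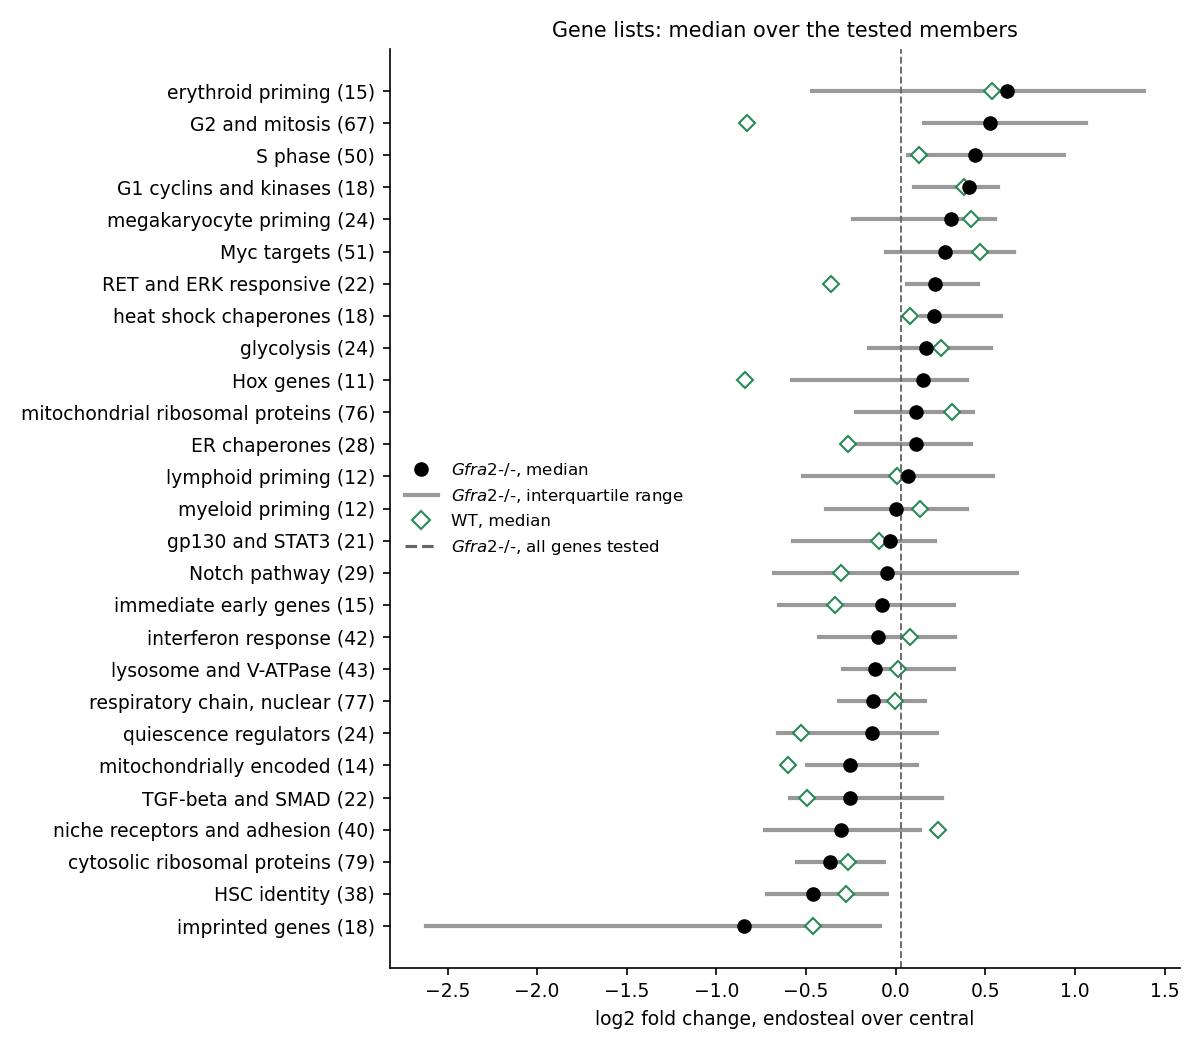
Median log2 fold change of endosteal over central cells for the 27 gene lists with 10 or more tested members, with the number tested beside each name. Filled points are Gfra2-/- medians, grey bars the interquartile range of the members, open diamonds WT medians, and the dashed line the median of all genes in Gfra2-/- (0.03). Imprinted genes (-0.84) and HSC identity genes (-0.46) lie lowest and erythroid genes (0.62) and mitotic genes (0.52) highest, and WT mitotic genes lie at -0.83.

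Erythroid priming genes had a median of 0.62 with 11 of 15 higher (51.6% over all genes). DESeq2 called 1, which was higher (1.49% over all genes). Klf1, the master regulator of erythroid genes, had 9.02, 29.1, 1.32 and 2.54 CPM in endosteal libraries. It had 3 counts in central library A and 0 in the other central libraries. In Hbb-bs the endosteal value came from library D, and Epor, the erythropoietin receptor, was lower in endosteal cells (-2.42 ± 1.11) with overlap. Without library D the median was -0.0049 with 7 of 14 higher. Library D also held the most erythroblast marker reads. Klf1 was higher in each endosteal library than in all central ones, and the part of erythroblasts in this difference was not tested.

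Megakaryocyte genes had a median of 0.31 with 15 of 24 higher (51.6% over all genes). Their median was -0.18 to 0.46 in fits without 1 library. The thrombin receptor F2r was higher (1.41 ± 0.54), and Vwf, the von Willebrand factor, was lower (-1.21 ± 0.57), both with overlap. Myeloid genes had a median of 0.00 with 6 of 12 higher (51.6% over all genes). Prtn3, a granule protease, had 70.2 to 140.4 CPM in endosteal and 151 to 277 CPM in central libraries, while Lyz2 (-0.65 ± 0.42) and Csf2ra (0.36 ± 0.45) overlapped. Lymphoid genes had a median of 0.07, with Cd27 at 0.52 ± 0.39, Cd34 at 0.48 ± 0.40 and Ebf1 at 1.84 ± 2.29. MHC class II genes were lower for 6 of 8 (48.4% over all genes) with a median of -0.73. Fits without 1 library gave medians of -1.08 to 0.20. The list level overlapped, at 3.40 to 5.41 in endosteal and 4.30 to 6.26 in central libraries. H2-Ab1 had 17.8, 58.9, 39.2 and 48.6 CPM against 59.6, 102 and 136 CPM, and H2-Eb1 (-2.50 ± 1.43) and H2-Aa (-0.78 ± 0.86) overlapped. Interferon-responsive genes had a median of -0.10. Their antiviral sensor Oas3 was lower (-2.55 ± 0.78, DESeq2 adjusted p 0.073) and the factor Irf1 higher (1.02 ± 0.39), with WT values of 0.31 and -1.47. Both genes overlapped between regions. Ifitm3, a membrane antiviral protein, was at -0.51 ± 0.22.

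**Figure D5:**
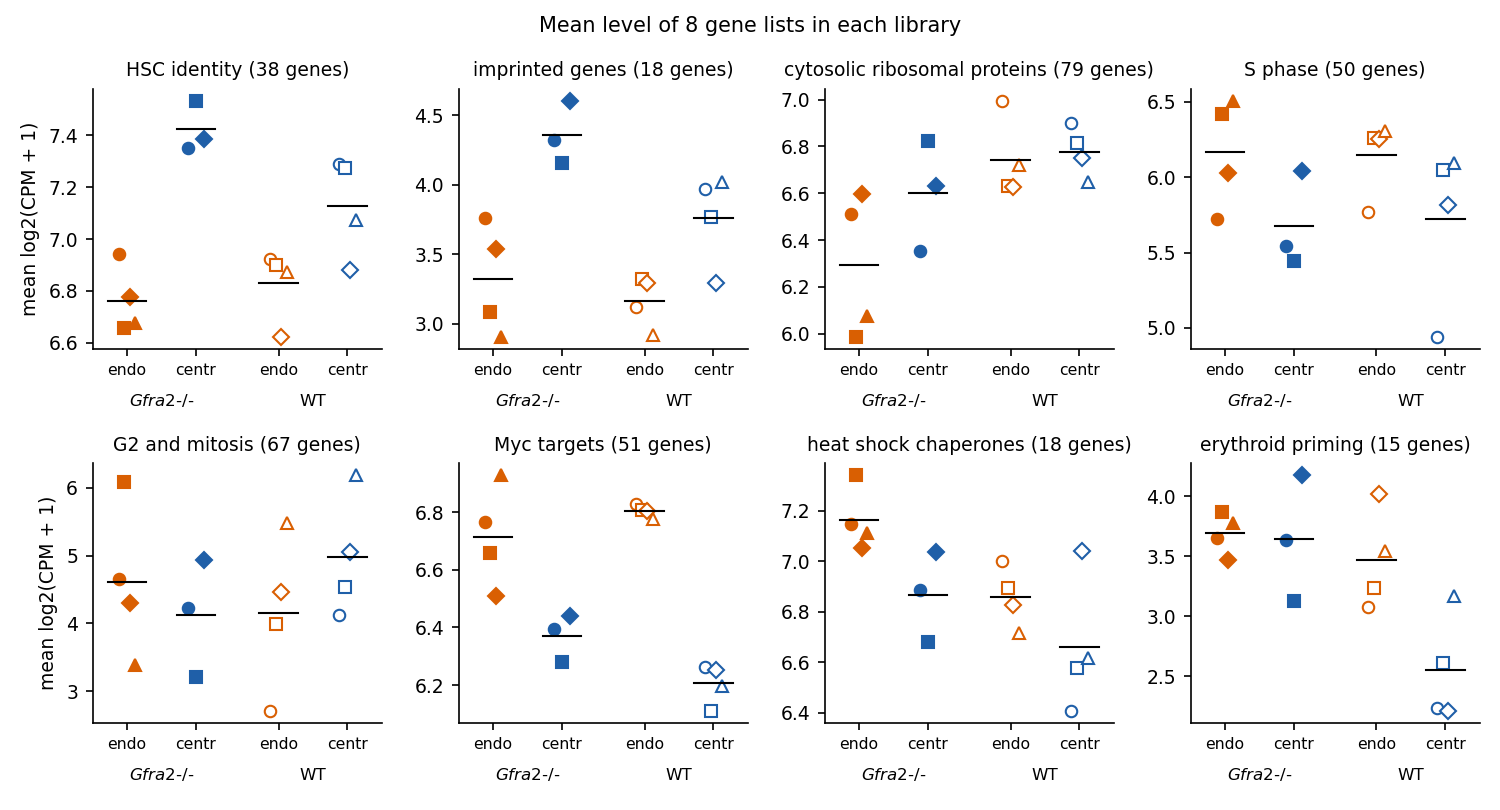
Mean log2(CPM + 1) over the tested members of 8 gene lists in each library, filled symbols for Gfra2-/- and open symbols for WT, orange for endosteal and blue for central, with a line at each group mean. In Gfra2-/- cells the HSC identity list lies at 6.94 or less in endosteal and 7.35 or more in central libraries, while G2 and mitosis genes range from 3.39 to 6.09 within the endosteal libraries.

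Receptors of the deleted pathway were close to the detection limit. Of 11 genes of the GDNF family and RET, 2 passed the filter on low counts. Ret, the signalling receptor, had 0, 0, 1 and 0 counts in endosteal and 0 in all central libraries, and 3 counts are the limit that a count of 0 allows. Gfra1 had 138 counts in endosteal library D and at most 2 elsewhere. Nrtn, the ligand of GFRα2, had 7.84, 8.02, 0.120 and 0.182 CPM in endosteal and 0.668, 0 and 0 CPM in central libraries. Gfra4 was at 0.00 ± 2.51, and Ncam1, an alternative GDNF receptor, at -1.94 ± 1.97. The genes that respond to RET and ERK signals had a median of 0.22 with 17 of 22 higher (51.6% over all genes). For 1 of them, a higher one, the unadjusted p was under 0.05 (2.74% over all genes). Without B and D their median was -0.08. Chrna7, a nicotinic acetylcholine receptor subunit, had 0 counts in all 7 libraries. Of 28 cholinergic and adrenergic genes 4 were tested. Chrnb1 had 49.8 to 60.2 CPM in endosteal and 10.7 to 53.5 CPM in central libraries, and Ache (-2.08 ± 1.38) and Chrnb2 (-3.27 ± 2.36) each rested on 1 central library. Among the RET and ERK genes, Spry1 (2.46 ± 2.05), Jund (-1.04 ± 1.11) and Myc had the smallest p.

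Receptors for niche signals had a median of -0.30 with 26 of 40 lower (48.4% over all genes). An unadjusted p under 0.05 was reached by 2 higher and 1 lower (2.74% and 2.05% over all genes). Itgb1, the β1 integrin, had 272, 267, 337 and 401 CPM in endosteal and 161, 233 and 134 CPM in central libraries (0.86 ± 0.29). Cxcr4, the receptor for the retention factor CXCL12, had 10.4, 5.69, 11.7 and 20.4 CPM in endosteal and 3.67, 3.44 and 7.17 CPM in central libraries, with overlap. Its log2 fold change was 1.34 ± 0.98, and the WT value was -1.30. The interaction for Cxcr4 had an unadjusted p of 0.079. Notch1 had 13.0 to 56.99 CPM in endosteal and 31.5 to 44.9 CPM in central libraries (-0.28 ± 0.61). The Notch list had a median of -0.05, with Adam17, which cleaves Notch, at 1.31 ± 0.57, Hes1, a Notch target, at -4.24 ± 1.97 and Notch2 at 0.85 ± 0.47. TGF-beta genes had a median of -0.25, where Ski (-1.37 ± 0.51), Smad1 (-1.13 ± 0.57) and Tgfbr1 (-0.76 ± 0.49) were lower. The gp130 and STAT3 list had a median of -0.03, with Stat3 at 0.56 ± 0.29, Socs2 at -0.60 ± 0.40, Pias3 at 1.29 ± 0.86 and, in the niche list, the interferon receptor Ifnar1 at 1.46 ± 0.64.

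Further lists covered metabolism and stress. The nuclear respiratory chain genes had a median of -0.13 with 45 of 77 lower, glycolysis 0.17 with 13 of 24 higher, and lysosome and V-ATPase genes -0.11 with 23 of 43 lower. Over all genes, 48.4% were lower and 51.6% higher. The mitochondrially encoded genes had a median of -0.25 in Gfra2-/- and -0.60 in WT cells, with mt-Nd6 at -0.88 ± 0.30, mt-Nd2 at -0.69 ± 0.31 and mt-Nd4 at -0.51 ± 0.26. Without endosteal B and D their Gfra2-/- median was 0.06. Of the respiratory genes, Atp5b had 1186 to 1592 CPM in endosteal and 854 to 1032 CPM in central libraries, while Uqcrc1 (0.62 ± 0.29) and Uqcrh (-0.55 ± 0.27) overlapped. The lactate exporter Slc16a3 had 18.0, 9.88, 1.80 and 0.182 CPM against at most 0.196 CPM (DESeq2 adjusted p 0.027). The glycolytic enzyme Pfkl was at 0.72 ± 0.28 and Hk2 at 1.35 ± 0.70. Of the lysosome genes besides Atp6v1a, Scarb2 was at 1.28 ± 0.56 and Lamp2 at 0.69 ± 0.34. Immediate early genes had a median of -0.08, with Gadd45b at -2.96 ± 2.05 and Nfkbia at -0.61 ± 0.44. Hox genes had a median of 0.15, with Hoxb5, a marker of long-term HSCs, at 0.838 to 12.5 CPM in endosteal and 19.4 to 30.4 CPM in central libraries, and Hoxa5 and Hoxa9 overlapping.

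The WT libraries were set beside these values, with no sample in common. With edgeR, 0 of 11181 genes passed in WT cells (0.0%), with 882 at an unadjusted p under 0.05 (7.89%) and 607 DESeq2 calls (4.52%). Of the 664 Gfra2-/- genes with an unadjusted p under 0.05, 512 were tested in WT cells, and 328 of them (64.1%) had the same sign there, against 54.7% of the 11092 genes tested in both. The unadjusted WT p was under 0.05 for 60 of the 512, 52 of them with the same sign. The interaction, which tests whether the regional difference itself differed between genotypes, passed for 0 of 15416 genes in edgeR (0.0%), with 1074 at an unadjusted p under 0.05 (6.97%) and 240 DESeq2 calls (1.62%). The WT central libraries were shallower, with 826487 to 3367289 reads on genes, so the WT values carry more counting error.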

How the data were processed

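RNA was sequenced from pools of 30 HSCs per library with Smart-seq2. The authors aligned single 50 bp reads to GRCm38 with GSNAP and counted reads per Ensembl gene without strand by HTSeq (0.5.3p3). The deposited values are raw counts per gene. The 92 spike-in rows and 5 summary rows stayed out of library sizes and tests. Columns were matched to groups by the study's sample sheet, and 1 column of per-sample values was not used. Gene names and positions came from GENCODE M21 (45229 of 46078 genes matched).

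Counts were tested with edgeR 4.0.16 (filterByExpr, TMM, quasi-likelihood test, Benjamini-Hochberg, FDR 0.1) on the 7 Gfra2-/- libraries alone. The WT contrast used the 8 WT libraries and the interaction all 15. CPM are TMM-scaled, and log2 levels use a pseudocount of 1. Library measures were tested by exact permutation in scipy 1.17.1. Alternatives were DESeq2 1.42.0, limma-voom (limma 3.58.1), other scalings and filters, the spike-in batch as a term and left-out libraries. The scripts were tested on simulated counts. Intervals and floors cover counting error only.

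Named genes were 8 genes of the study's pathways, the 8 with the smallest edgeR p and the 5 with the smallest DESeq2 adjusted p per direction among those with non-overlapping groups, the 8 per direction with the highest minimum level among genes at 3 or fewer counts in one region and 10 or more in the other, and the 3 with the smallest p per list. Some genes chosen by these rules are not reported here. Members and lists were chosen with earlier results of these data known. Kdr stands in both the HSC and the endothelial lists.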

Additional observations from a re-analysis of the deposited data

Results flagged for a closer look

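The gap test for single samples was run on the 4 endosteal libraries for each named gene, list and library measure, and chance alone marks about 1 in 20 such groups. No explanation was weighed.

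Endosteal library D held 12.5 CPM of Gfra1 (138 counts), 334 CPM of Cd79a, 94.1 CPM of Ebf1, 341 CPM of Hbb-bs and 98.3 CPM of Hba-a1, where the other endosteal libraries had at most 0.104, 1.80, 0.466, 4.23 and 4.86 CPM. The same library was lowest for Alcam, at 9.63 CPM against 30.7 to 34.6 CPM, and highest for Atp5b, at 1592 CPM against 1186 to 1249 CPM, and Pecam1, at 45.9 CPM against 36.8 to 37.8 CPM. It had 414.9 reads on genes per spike-in read, against 54.3 to 90.5 in the others.

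Endosteal library A stood out for Ski (122 CPM against 34.2 to 45.9 CPM), Klrb1c (11.4 CPM against at most 1.04 CPM), C1qc (5.62 CPM against 0) and the mean log2(CPM + 1) of endothelial markers (3.96 against 2.82 to 2.96). Library B stood out for Tyms, at 562 CPM against 113 to 134 CPM. Library C stood out for Cfap126 (10.4 CPM against 1.35 to 1.67 CPM), Rian (3.11 CPM against at most 0.347 CPM), Adam17 (236 CPM against 103 to 119 CPM) and, at the low end, the Y-linked gene Eif2s3y (75.9 CPM against 120.5 to 127.6 CPM).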

How the results depend on the processing

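edgeR called 0 genes between regions in every alternative run within edgeR, with 9342 to 23215 genes tested, except spike-in size factors, which called 15 of 13860 (13 of them lower) and moved the median of all genes from 0.03 to -0.46. DESeq2 called 395, 606 without endosteal libraries B and D, 527 in the high spike-in libraries, and 394 to 618 with 1 library left out. In edgeR the fits without 1 library called 0, with 560 to 838 genes at an unadjusted p under 0.05. All 7 Gfra2-/- libraries pass the study's quality limits, so that alternative leaves the result as it is. In WT cells the count moved from 0 to 607 with DESeq2, 6 with limma-voom, 58 without a filter, 11 with at least 10 counts in every library and 0 to 6 without 1 library (6 without endosteal A). The interaction moved from 0 to 240 with DESeq2 and 193 with spike-in size factors. No paired analysis was possible because the columns carry no replicate numbers.

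Of 533 values of list medians under alternatives, 479 moved by less than the spread between libraries. That spread can exceed the median itself, so a median may change sign and still count among the 479. It was 0.99 for MHC class II genes, whose medians without 1 library ran from -1.08 to 0.20. For megakaryocyte genes it was 0.56, with medians from -0.18 to 0.46. With spike-in size factors, relative to all genes, the median was -0.60 for HSC identity, -1.33 for imprinted and 0.22 for erythroid genes. In the high spike-in libraries it was -0.32 for HSC identity, -0.50 for imprinted genes, 0.40 for heat shock and 0.25 for erythroid genes. With at least 10 counts in every library it was -0.35 for imprinted genes. Without endosteal B and D it was -0.38 for quiescence, 0.15 for G1, 0.084 for MYC target and -0.19 for erythroid genes. Fits without 1 library gave -0.56 to -0.11 for niche receptors, 0.22 to 0.41 for heat shock and -0.0049 to 1.31 for erythroid genes. The alternatives without B and D, and DESeq2 without 1 library or in the high spike-in libraries, were chosen after seeing the data.

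Among 132 named genes, 19 changed sign in at least 1 alternative, and the cause was not tested. As reported their log2 fold changes were -2.08 for Ache, 0.48 for Cd34, -1.44 for Cd48, -0.49 for Cd68, 2.00 for Cd79a, -3.27 for Chrnb2, 1.84 for Ebf1, -0.70 for Emcn, 0.003798 for Gfra4, 0.69 for Hbb-bt, -0.13 for Kdm5d, -0.65 for Lyz2, -1.94 for Ncam1, -0.28 for Notch1, -0.35 for Runx2, -1.94 for S100a9, 0.86 for Slamf1, 2.46 for Spry1, -2.23 for Vpreb1. In the high spike-in libraries the log2 fold change was 0.11 for Notch1, 0.37 for Cd48, -0.14 for Gfra4, 1.22 for Ache, 0.19 for Lyz2, 3.95 for S100a9, -3.73 for Cd79a, -0.10 for Hbb-bt, 0.14 for Runx2, 0.45 for Emcn. Without endosteal B and D the log2 fold change was 0.14 for Notch1, -0.69 for Gfra4, -1.56 for Spry1, -0.16 for Cd34, -5.22 for Ebf1, -4.50 for Cd79a, -0.28 for Hbb-bt. With spike-in size factors, relative to all genes the log2 fold change was -0.17 for Slamf1, -0.054 for Gfra4, 0.19 for Kdm5d. With DESeq2 size factors the log2 fold change was -0.001302 for Gfra4. With a spike-in batch term the log2 fold change was -0.15 for Gfra4, -3.64 for Ebf1, 2.28 for S100a9, 3.40 for Cd68, 3.26 for Vpreb1, -2.48 for Cd79a. Fits without 1 library gave -2.54 to 4.38 for Ncam1, -0.58 to 8.72 for Gfra4, -2.65 to 0.96 for Ache, -3.86 to 3.702 for Chrnb2, -0.92 to 0.13 for Lyz2, -2.52 to 3.53 for S100a9, -1.07 to 5.25 for Cd68, -2.80 to 5.20 for Vpreb1, -4.62 to 2.84 for Cd79a, -0.76 to 1.31 for Hbb-bt, -0.58 to 0.054 for Runx2, -1.12 to 0.51 for Emcn, -0.31 to 0.051 for Kdm5d.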
